A study of Saccharomyces cerevisiae with 78 samples.

Results

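The pentose phosphate pathway of budding yeast was followed through 10 genes in RNA-seq counts of 26 groups of BY4742 transformants. The genes were taken by their locus tags as the rows of ZWF1 (YNL241C), SOL3 (YHR163W), SOL4 (YGR248W), GND1 (YHR183W), GND2 (YGR256W), RKI1 (YOR095C), TKL1 (YPR074C), TKL2 (YBR117C), TAL1 (YLR354C) and NQM1 (YGR043C), which are 10 of the 5229 genes in the count files, and all 10 passed the filter on low counts that left 5212 genes for testing. The list was chosen by a known value of these data, the TKL2 level of clone M491-F10, which was higher than that of the control. The comparison of that clone with the control is therefore a description without a test for every member, and the tests below concern the other 24 clones. The other 9 genes were added as enzymes of the same pathway.

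BY4742 is a haploid laboratory strain of mating type alpha. Each of 25 groups carried 1 fusion gene clone, and the control group carried the empty plasmid p416-GAL1, a low-copy vector with the galactose-inducible GAL1 promoter. Every group was grown on galactose medium without uracil (SDCGal-Ura) to mid-logarithmic phase, and each was sampled as 3 biological replicates. The labels give a clone by its code alone, so which genes were joined in it is not known from them, and whether a member is part of a construct was not tested. The design text speaks of 22 clones where the labels hold 25. By their library names, replicate 3 of each group was resubmitted, whereas replicates 1 and 2 were not, and this split is called the library set. The library names of control replicate 3 and of M492-E01 replicates 1 and 2 carry another code than the sample's title, and these libraries were used as titled.

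The pathway has an oxidative branch and a non-oxidative branch. In the oxidative branch glucose-6-phosphate is oxidised to ribulose-5-phosphate, and the cell gains NADPH, the reductant used in biosynthesis and against oxidative stress. In the non-oxidative branch sugar phosphates are rearranged, which yields ribose-5-phosphate for nucleotides and links the pathway back to glycolysis. In yeast 4 steps are each served by a pair of paralogues, one of which is known as the main isozyme (SOL3, GND1, TKL1, TAL1) and the other as the minor one (SOL4, GND2, TKL2, NQM1). The counts of a pair hold uniquely assigned reads, and how many reads match both paralogues was not tested.

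Library totals ran from 10773809 to 18981572 counts, with a median of 14019225. The lowest count of any member in any library was 138, for RKI1, and TKL2 never fell below 1053 counts. Levels are given as CPM, counts relative to the library's TMM-scaled total, and levels of different genes are compared per kilobase of coding length. All 4 alpha cell markers had rows and summed to between 425 and 1407 CPM per library. Of 5 a cell markers 3 had rows, and these summed to between 70.4 and 103 CPM. Library set moved 84.6% of all genes tested past the threshold, and its shift is given below beside the members it touches.

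In the control the highest mean transcript levels were those of main isozymes. GND1, which makes ribulose-5-phosphate from 6-phosphogluconate, stood at 1401 ± 374 CPM per kb, and TAL1, the main transaldolase, at 1250 ± 29.0 CPM per kb (SD, n = 3 for these and all group values). TKL1, the main transketolase, followed at 638 ± 207 CPM per kb. The ranges of GND1 and TAL1 cannot be put in order, since the spread of GND1 covers the mean of TAL1. ZWF1, the glucose-6-phosphate dehydrogenase that opens the oxidative branch, had 433 ± 42.6 CPM per kb. SOL3, the main 6-phosphogluconolactonase, had 312 ± 103 CPM per kb. The minor isozymes lay below their partners, with NQM1 at 209 ± 5.92, SOL4 at 135 ± 11.4, GND2 at 134 ± 39.7 and TKL2 at 51.9 ± 3.95 CPM per kb. RKI1, the ribose-5-phosphate isomerase, had the lowest mean of the 10 at 33.7 ± 16.3 CPM per kb, and in control replicate 3 it was level with TKL2 at 52.4 against 52.2 CPM per kb.

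**Figure D1:**
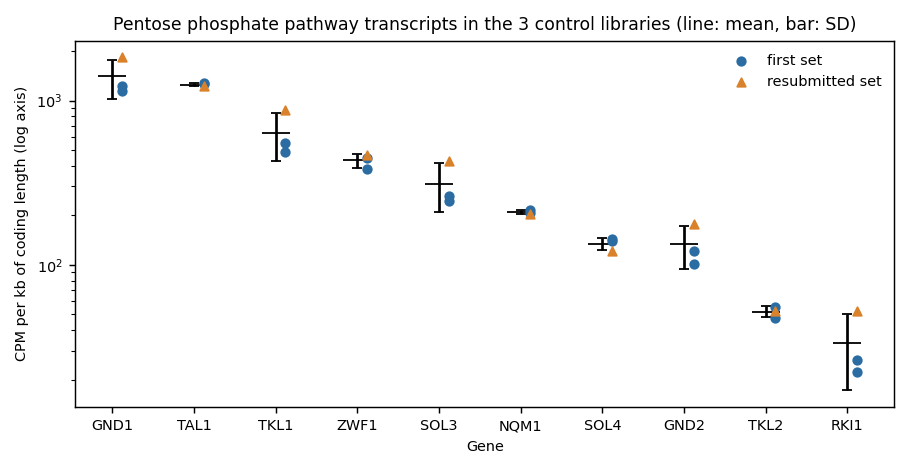
Levels of the 10 pathway genes in the 3 control libraries, in CPM per kilobase of coding length on a log axis, with a point for each library and a mark for the mean. GND1 and TAL1 stand highest at about 1401 and 1250 CPM per kb, the minor isozyme TKL2 is at 51.9 and RKI1 has the lowest mean at 33.7.

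Across the clones the members that rose were mainly the minor isozymes and ZWF1. Of the 17 calls of the main isozymes 16 were lower, 13 of these for SOL3 and 3 for GND1, with none for TKL1 or TAL1. Over 240 member and clone pairs 46 were called higher than the control (19.2%) and 18 lower (7.5%), at an adjusted p below 0.05 in edgeR's quasi-likelihood test. Over all 125088 gene and clone pairs 5.64% were called higher and 4.59% lower. The 4 minor isozymes gave 34 of the higher calls and no lower call over 96 pairs, and the 4 main isozymes gave 1 higher and 16 lower calls over 96 pairs. Without control replicate 1 the minor isozymes gave 18 higher calls, and without control replicate 3 the main isozymes gave 5 lower calls. Over replicates 1 and 2 alone the minor isozymes gave 52 higher calls and 1 lower call, and the main isozymes 11 and 37. The share of all genes called in these refits was not counted, so their counts have no background. All of these comparisons share the same 3 control libraries.

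The number of clones called higher was 11 for NQM1, 10 for ZWF1, 8 for GND2, 8 for TKL2 and 7 for SOL4. These counts depend on which control libraries enter. Without control replicate 1 they were 7 for NQM1, 4 for ZWF1, 6 for GND2, 3 for TKL2 and 2 for SOL4. Without replicate 2 NQM1 was called in 6 clones, and without replicate 3 ZWF1 in 5 and TKL2 in 3. For comparison, 1.98% of all genes tested were called higher in as many clones as NQM1, 2.67% in as many as ZWF1, 4.51% in as many as TKL2 or GND2, and 5.45% in as many as SOL4. TKL1 and TAL1 were called in 0 clones by edgeR over all libraries. DESeq2 called TKL1 lower in 1 clone. Over replicates 1 and 2 alone edgeR called TKL1 higher in 3 clones and lower in 4, and TAL1 higher in 1 and lower in 11. The share of all genes called in that refit was not counted. In 6 clones all 4 minor isozymes were called higher, namely M491-C04, M491-C07, M491-C12, M491-D09, M495-D09 and M495-F02, and in 12 clones none was. The share of all genes called higher in these 6 clones was, in the same order, 8.12%, 12.1%, 4.95%, 8.69%, 8.04% and 25.6%. Without control replicate 1 all 4 were called in 2 clones, M495-D09 and M495-F02, without replicate 3 in these and M491-C04, and without replicate 2 in 5 of the 6.

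**Figure D2:**
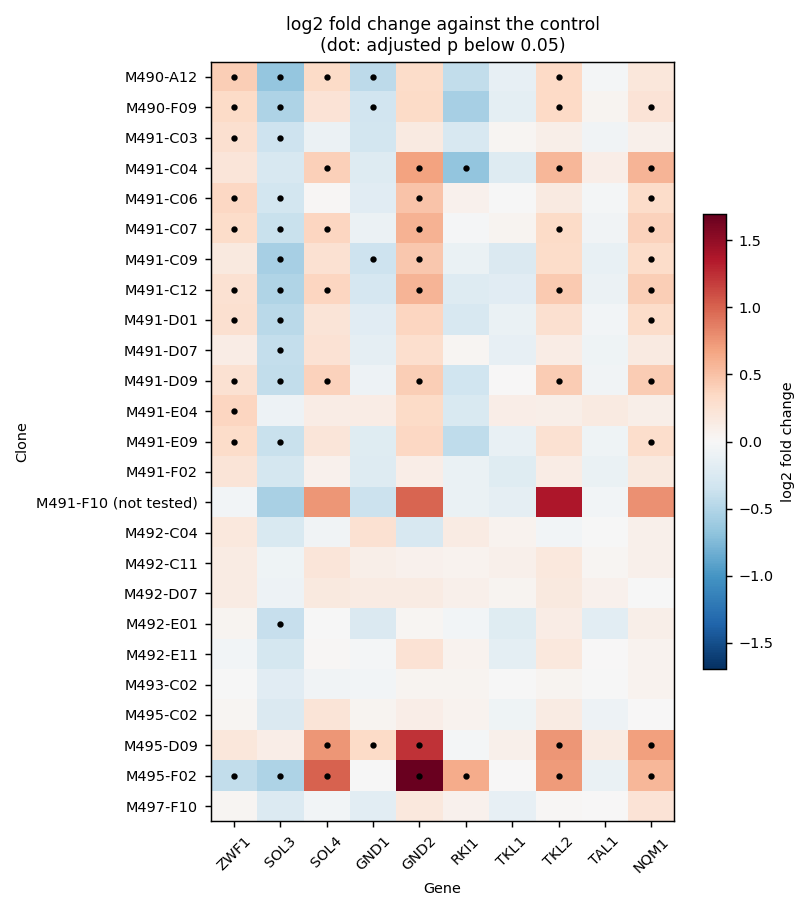
Log2 fold change of each member (columns) in each clone (rows) against the control, with a dot where the adjusted p was below 0.05. M491-F10 was not tested. The columns of SOL4, GND2, TKL2 and NQM1 are mostly positive with their largest values in M495-F02, M495-D09, M491-F10 and M491-C04. The column of SOL3 is mostly negative, and the columns of TKL1 and TAL1 stay between -0.25 and 0.15.

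ZWF1 catalyses the first and committed step of the oxidative branch and is a source of NADPH. Its levels in the control were 584.6, 679 and 708 CPM in replicates 1, 2 and 3. In M490-A12, which had the highest group mean, they were 821, 827 and 989.9 CPM, all above the control. Its log2 difference from the control was 0.42 (SE 0.0824, adjusted p = 0.000208 by edgeR's quasi-likelihood test), in a clone with 11.9% of all genes called higher. M495-F02 was the 1 clone in which ZWF1 fell, with 521, 479 and 469.9 CPM and a log2 difference of -0.42 (SE 0.0825, adjusted p = 2.9e-05). All 3 of its libraries lay below the control's lowest one, and the next lowest group, M492-E11, did not overlap it. In M491-F10 ZWF1 was at 655, 604 and 648 CPM, inside the control's range.

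SOL3 and SOL4 encode 6-phosphogluconolactonases of the second step, and they differed in the sign of their calls. SOL3 was lower than the control in 13 of 24 clones and higher in none, and 0.48% of all genes tested were called lower in as many clones. Its control levels were 183, 196 and 323 CPM. In M490-A12 they were 125, 129 and 187 CPM, with a log2 difference of -0.66 (SE 0.115, adjusted p = 4.08e-05), and the highest of these lay above the control's lowest. Of all genes 10.5% were called lower in this clone. M491-C09 was the 1 clone with a change of at least 0.5 on the log2 scale and no overlap, at 145, 145 and 174 CPM and a log2 difference of -0.56 (SE 0.115, adjusted p = 0.00137), where 3.22% of all genes were called lower. Without control replicate 3, with all clone libraries kept, 4 clones were called lower, against 14 without replicate 1 and 11 without replicate 2. Over replicates 1 and 2 of all groups 13 clones were called lower and 1 higher. The set shift of SOL3 was 0.40 on the log2 scale over all groups and 0.77 in the control alone. By the first-set plate rows in the library names, 5 of 6 clones were called lower in row A and 5 of 6 in row B. In row C it was 1 of 5, in row D 2 of 6 and in row E, with the control, 0 of 1. Of all genes, 6.37% to 12% were called lower by clone in row A and 2.36% to 4.49% in row B. The ranges were 0% to 4.09% in row C and 0.0576% to 24.7% in row D, with 0.556% in row E. Row and clone cannot be told apart in this comparison.

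SOL4, the minor lactonase, had 107, 110.4 and 93.7 CPM in the control. In M495-F02 it reached 256, 245 and 133 CPM, a log2 difference of 1.00 (SE 0.109, adjusted p = 2.56e-11), or 2.00-fold. In M495-D09 it had 202, 192 and 135 CPM and a log2 difference of 0.75 (SE 0.109, adjusted p = 5.47e-07). No library of either clone overlapped the control, and in both the resubmitted library was the lowest. M491-F10 was close to M495-D09, with 185, 185 and 153 CPM. The sets gave different sizes for SOL4 in M495-F02, with a log2 fold change of 1.20 over replicates 1 and 2 and of 0.51 for the resubmitted replicate. Over all groups SOL4 was lower in the resubmitted set by a log2 value of -0.29.

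GND1 and GND2 encode 6-phosphogluconate dehydrogenases, which give the pathway's second NADPH. GND1 had 1689, 1799.6 and 2691.5 CPM in the control. It was lower in 3 clones and higher in 1, M495-D09, with 2295, 2402 and 2871 CPM and a log2 difference of 0.32 (SE 0.112, adjusted p = 0.0451). Of all genes tested 14.6% were called lower in as many clones as GND1, and 45.2% higher in as many. In M490-A12 it had 1261, 1237 and 2054 CPM and a log2 difference of -0.45 (SE 0.113, adjusted p = 0.00273), with its resubmitted library inside the control's range. The higher call in M495-D09 was lost when any of the control libraries was left out, and 1 or 2 of the lower calls were left.

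GND2, the minor isozyme, varied most among the members, with group means spanning 3.61-fold. The control had 149, 181 and 263 CPM. M495-F02 had 631, 618 and 539.9 CPM, above every library of the other groups. Its log2 fold change was 1.68 (SE 0.131, adjusted p = 1.94e-16), or 3.21-fold. In M495-D09 the levels were 436, 422 and 473 CPM, a log2 difference of 1.22 (SE 0.129, adjusted p = 5.81e-10). In M491-C04 they were 277, 269.6 and 393 CPM, with a log2 difference of 0.68 (SE 0.129, adjusted p = 0.000154). None of these clones overlapped the control. M491-F10, without a test, had 349, 329 and 489.7 CPM. At the other end M492-C04 had the lowest mean, 165 ± 60.6 CPM, which overlapped the control and was not called. The set shift of GND2 was 0.70 on the log2 scale, so its resubmitted libraries were higher in most groups, but in M495-F02 the resubmitted library was the lowest.

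RKI1 links the branches by turning ribulose-5-phosphate into ribose-5-phosphate. It had the fewest counts and the largest set shift of the 10 genes, 0.76 on the log2 scale. In the control it stood at 20.5, 17.4 and 40.7 CPM. In M495-F02 it had 27.6, 27.6 and 68.1 CPM, a log2 difference of 0.63 (SE 0.197, adjusted p = 0.00586). In M491-C04 it had 11.98, 14.8 and 20.9 CPM, a log2 difference of -0.67 (SE 0.217, adjusted p = 0.0266). Of all genes 25.6% were called higher in M495-F02 and 6.93% lower in M491-C04. RKI1 was thus called higher in 1 clone and lower in 1. Of all genes tested 45.2% were called higher and 41.6% lower in as many clones. Both clones overlapped the control over the pooled libraries, and each was on one side of it within either set. The low resubmitted value of M491-C04 was shared by its plate row. By the rows in the library names, resubmitted row A, which holds M491-C04, ran from 20.9 to 31.7 CPM. Rows B and C, the latter with the control, ran from 34.6 to 68.1 CPM apart from M491-E09 at 22.9. Row and clone cannot be told apart there. The lower call did not pass in 5 of 16 alternatives, among them the one without control replicate 3. The higher call did not pass in 2 of 16.

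**Figure D3:**
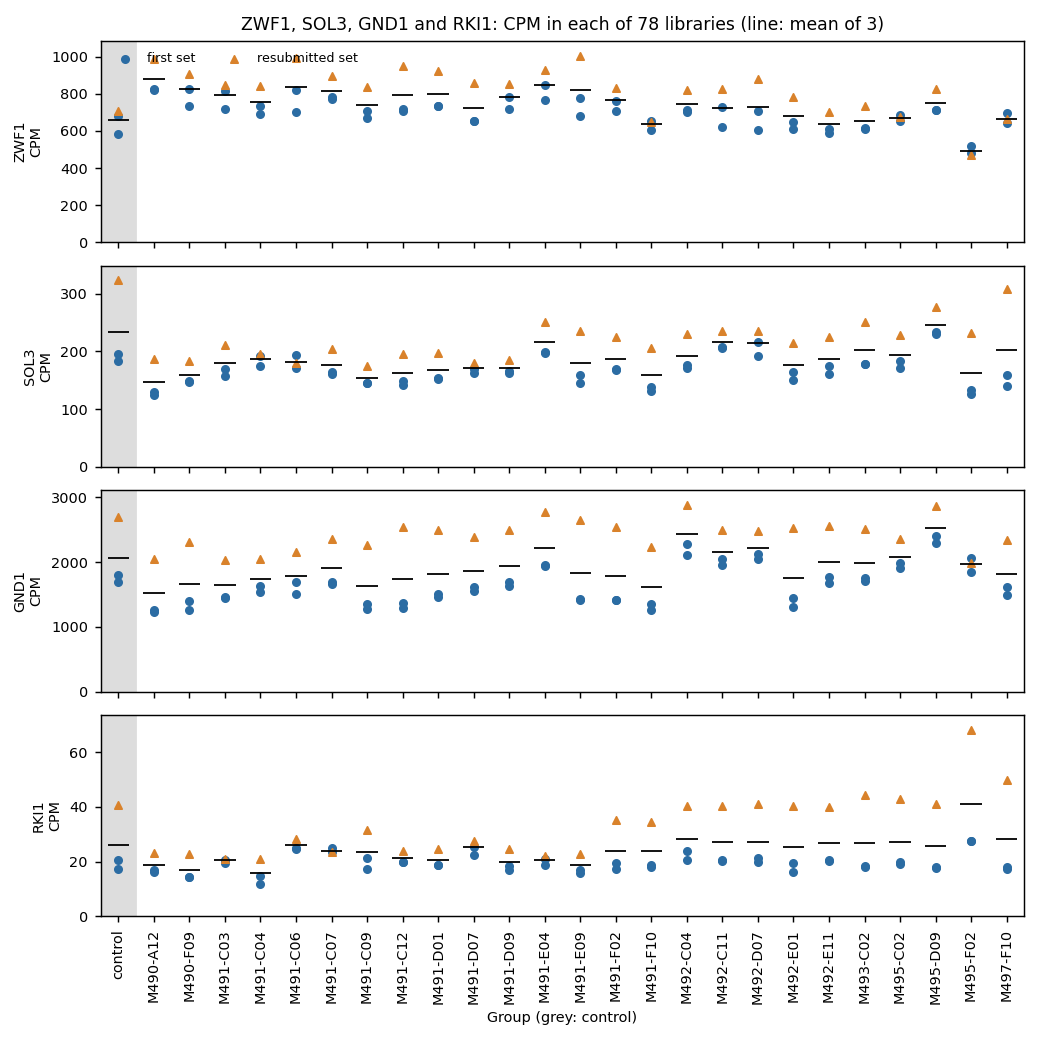
CPM of ZWF1, SOL3, GND1 and RKI1 in every library, by group, with first-set and resubmitted libraries marked apart. The resubmitted libraries stand above the first-set ones for RKI1, GND1 and SOL3 in nearly every group, and ZWF1 is lowest in M495-F02, at 470 to 521 CPM.

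TKL1 and TKL2 encode transketolases, which move carbon units between sugar phosphates in the non-oxidative branch. TKL1 was one of the steadiest members. Its control libraries held 998, 1125.5 and 1786 CPM, where the resubmitted library stood highest, and over all groups its set shift was 0.61 on the log2 scale. Its log2 fold changes in 24 clones ran from -0.25 to 0.12, with 2 clones called lower when control replicate 1 was left out. Group means differed by 1.25-fold at most.

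TKL2, the minor transketolase, had 97.9, 114 and 107 CPM in the control, and the 3 libraries of M491-F10 held 261, 261 and 309.8 CPM. These are the values that chose the list, so they carry no test. The clone's group mean of 277 ± 28.1 CPM was 2.60-fold the control in the fit, a log2 value of 1.38. It did not overlap the next group, and its libraries led each set. The row that pools construct sequences held 0.266% to 0.312% of the counts in this clone, against a median of 0.886% over all libraries. Over replicates 1 and 2 the log2 difference was 1.29, and for the resubmitted replicate it was 1.54. Among the members the difference in M491-F10 was largest for TKL2, by whose value there the list was chosen. GND2 followed at 0.99, NQM1 at 0.78 and SOL4 at 0.75. These genes did not overlap the control, and the share of all genes without overlap was not counted. By the fit, 20.4% of all genes were called in this clone. The main isozymes of that clone were at -0.55 for SOL3, -0.37 for GND1, -0.16 for TKL1 and -0.05 for TAL1.

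Below M491-F10 the groups formed a continuous order in TKL2. M495-D09 had 193, 183 and 156 CPM, M495-F02 had 192, 182 and 152 CPM, and M491-C04 had 168, 153 and 148 CPM. All 9 libraries were above the highest control library. The log2 fold changes were 0.74 (SE 0.119, adjusted p = 4.11e-06), 0.73 (SE 0.119, adjusted p = 7.9e-07) and 0.56 (SE 0.119, adjusted p = 0.000712). Next came M491-C12 at 145 ± 14.0 CPM, M491-D09 at 143 ± 18.4, M490-F09 at 135 ± 16.6, M490-A12 at 135 ± 8.79 and M491-C07 at 134 ± 4.08 CPM. These 5 clones were also called higher, with M491-C12 at a log2 fold change of 0.44 (adjusted p = 0.0142) and M491-C07 at 0.33 (adjusted p = 0.0339). In M490-F09 8.6% of all genes were called higher. The remaining groups ran without a gap from M491-C09 at 133 ± 22.9 CPM down to the control at 106 ± 8.08 and M492-C04 at 103 ± 6.36 CPM. Every group below the first overlapped its neighbour in that order. The 3 leading calls were kept without any 1 control library, while 3 clones in all were called without control replicate 1 and 3 without replicate 3, against 8 without replicate 2.

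**Figure D4:**
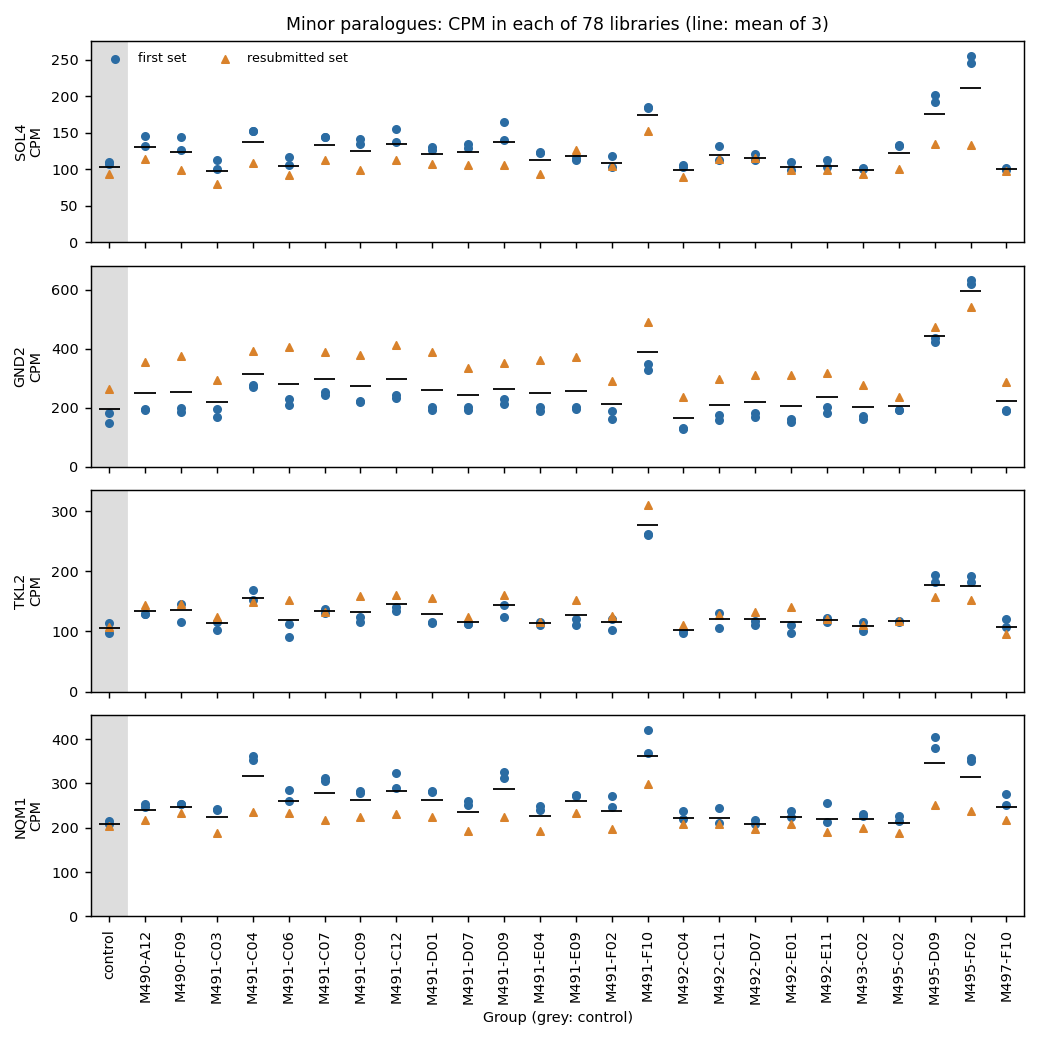
CPM of SOL4, GND2, TKL2 and NQM1 in every library, by group, with first-set and resubmitted libraries marked apart. The TKL2 libraries of M491-F10, at 261 to 310 CPM, lie above those of every other group, whereas GND2 is highest in M495-F02 and NQM1 in M491-F10, M495-D09, M491-C04 and M495-F02 with overlap among them.

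TAL1 and NQM1 are the transaldolase pair. TAL1, the main one, had 1269.8, 1283 and 1227 CPM in the control, and its log2 fold changes ran from -0.17 to 0.15. It also had the smallest set shift, 0.06 on the log2 scale. NQM1, its minor paralogue, stood at 215, 208 and 204 CPM in the control, a narrow range. In M495-D09 it had 406, 379.8 and 251 CPM, a log2 difference of 0.70 (SE 0.0857, adjusted p = 1.56e-08). In M491-C04 it had 362, 352 and 236 CPM and a log2 difference of 0.58 (SE 0.0858, adjusted p = 2.14e-06), and in M495-F02 349.9, 359 and 237 CPM and a log2 difference of 0.57 (SE 0.0857, adjusted p = 1.45e-07). The 3 clones did not overlap the control, and their resubmitted libraries were the lowest. M491-F10 had 421, 369 and 299 CPM. The log2 difference of NQM1 in M495-D09 was 0.88 over replicates 1 and 2 and 0.30 for the resubmitted replicate, with like gaps in M495-F02 (0.74 and 0.22) and M491-C04 (0.75 and 0.21). The set shift of NQM1 was -0.31 over all groups and -0.06 in the control.

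The share of each minor isozyme in its pair, per coding length, shows the shift within a step. TKL2 made up 7.92% ± 1.98 of transketolase transcripts in the control and 19.7% ± 2.61 in M491-F10. It was 12.7% ± 2.74 in M491-C04, 12.3% ± 2.94 in M495-F02 and 11.997% ± 3.55 in M495-D09, with a median over groups of 9.67%. GND2 made up 8.66% ± 0.54 of its pair in the control and 23.1% ± 2.04 in M495-F02. NQM1 made up 14.3% ± 0.27 of its pair in the control and 22.95% ± 3.33 in M491-F10. The shares were not tested. SOL4 was the 1 minor isozyme to exceed its partner in a group mean, at 55.6% ± 17.0 in M495-F02 and 52.1% ± 8.72 in M491-F10, and the control had the lowest share, 31.3% ± 7.96. In M495-F02 the libraries of SOL4 were far apart, at 66.4%, 64.4% and 36.1%. TKL1 and GND1 remained the more abundant transcript of their pairs in all 26 group means, and so did TAL1.

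**Figure D5:**
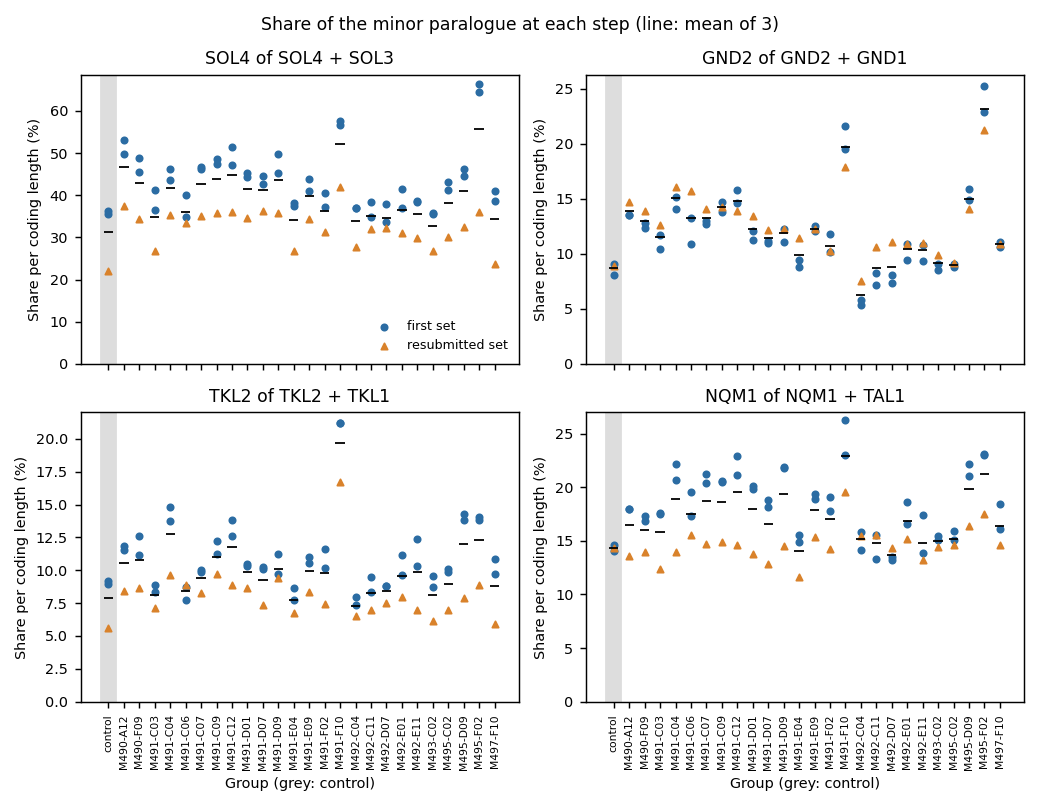
Share of the minor isozyme in each of the 4 paralogue pairs, in percent of CPM per coding length, by group with a point for each library. TKL2 stands apart in M491-F10 at 19.7%, GND2 is highest in M495-F02 at 23.1%, and SOL4 spans 31.3% in the control to 55.6% in M495-F02.

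Clones differed in how many other genes moved with the members. In M495-F02 5 members were higher and 2 lower, where 25.6% of all genes tested were called higher and 24.7% lower. In M495-D09 5 members were higher and none lower, against 8.04% and 5.41% of all genes. In M491-C04 4 were higher and 1 lower, against 8.12% and 6.93%. The median log2 fold change over the 10 members was 0.29, 0.26 and 0.16 in these clones, and that over all genes was 0.01, 0.00 and 0.00. In 8 clones (M491-F02, M492-C04, M492-C11, M492-D07, M492-E11, M493-C02, M495-C02 and M497-F10) 0 of 10 members were called by edgeR. Of all genes 0.46%, 6.39%, 0.0384%, 0.0192%, 0.883%, 0.0767%, 1.57% and 1.48% were called there, in the same order.

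Averaged over the 24 clones, GND2 was higher than the control by a log2 value of 0.37 (SE 0.0961, adjusted p = 0.0114 by edgeR) and NQM1 by 0.25 (SE 0.0634, adjusted p = 0.0114). SOL3 was lower at -0.33 (SE 0.0797, adjusted p = 0.00762). Over all genes 5.54% were called in this comparison. TKL2 at 0.26 (adjusted p = 0.0702), SOL4 at 0.22 (adjusted p = 0.0935) and ZWF1 at 0.17 (adjusted p = 0.0779) did not pass. The 3 calls rest on which control libraries enter. Without replicate 1 SOL3 alone passed, without replicate 2 GND2 and SOL3 passed, and without replicate 3 NQM1 alone passed.

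Because the control is shared by every comparison, clones were also set against the mean of the other groups. There TKL2 was higher by a log2 value of 0.52 in M495-D09, 0.50 in M495-F02 and 0.33 in M491-C04. The higher calls were also counted by the first-set plate rows written in the library names. Rows A and B (6 clones each) held 19 and 15 of them and row D (6 clones) 10. Row C (5 clones) held 2 and row E, which holds the control and 1 clone, 0. Of all genes, 6.54% to 12.1% were called higher by clone in row A and 3.03% to 8.69% in row B. The ranges were 0.0192% to 25.6% in row D and 0.0192% to 2.65% in row C, and the clone of row E had 0.921%. Row and clone cannot be told apart in the comparison with the control. Against the other clones of its own row, TKL2 was higher by 0.50 in M495-D09 (adjusted p = 1.29e-05), by 0.48 in M495-F02 (adjusted p = 4.86e-06) and by 0.31 in M491-C04 (adjusted p = 0.017), where 17.1%, 56.9% and 11.6% of all genes were called. In the same comparison GND2 was at 1.35 in M495-F02 and 0.80 in M495-D09, and ZWF1 was lower in M495-F02 at -0.46 (adjusted p = 3.91e-08). ZWF1 in M490-A12 was at 0.12 there and did not pass (adjusted p = 0.232), with 6.81% of all genes called. Of 240 pairs 26 were higher and 19 lower against the other groups, where 6.45% and 6.08% of all gene and clone pairs were. Of 230 pairs 24 were higher and 20 lower against the row, where 5.35% and 4.93% of all pairs were.

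Of 12 other genes of the pathway, among them RPE1 (ribulose-5-phosphate epimerase), PGI1 (phosphoglucose isomerase) and PRS1 to PRS5 (which make phosphoribosyl pyrophosphate), none was called in the mean of the 24 clones by edgeR, where the furthest from 0 were SHB17 at -0.09, PRS3 at -0.07, SOL1 at 0.06 and RBK1 at 0.06. In M495-F02 SOL1 at 0.50 and PRS4 at 0.40 were higher and SOL2 at -0.33 and PGI1 at -0.25 lower, all on the log2 scale. In M495-D09 XKS1, the xylulokinase, was higher at 0.20. In M491-C04 PGI1 was higher at 0.30 and PRS4 lower at -0.35. That makes 2 of the 12 higher and 2 lower in M495-F02, where 25.6% and 24.7% of all genes were. The counts were 1 and 0 in M495-D09 (8.04% and 5.41% of all genes) and 1 and 1 in M491-C04 (8.12% and 6.93%). In the mean of the 24 clones 5.54% of all genes were called. SOL1 and SOL2 are relatives of SOL3 and SOL4 that are linked to tRNA function.

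Of 8 other NADPH sources 1 was higher in the mean of the 24 clones, IDP2, the cytosolic NADP-dependent isocitrate dehydrogenase, at 0.32 (adjusted p = 0.00119 by edgeR). In this comparison 3.28% of all genes were called higher. IDP2 was at 0.89 in M495-F02 and 0.47 in M491-C04, both called, and in M495-D09 it did not pass at 0.14. ALD6, the cytosolic acetaldehyde dehydrogenase, was higher in M495-F02 at 0.31 and in M495-D09 at 0.37. IDP1, the mitochondrial isozyme, was lower in both, at -0.34 and -0.51. YEF1, an NADH kinase, was higher in M495-D09 at 0.78 and lower in M495-F02 at -0.32, and IDP3 at 0.36 and UTR1 at 0.13 were higher in M495-F02. In the mean of the 24 clones MAE1 at -0.16, ALD6 at -0.14 and IDP1 at -0.13 did not pass. In M495-F02 4 of the 8 genes were higher and 2 lower, where 25.6% and 24.7% of all genes were. The counts were 2 and 1 in M495-D09 (8.04% and 5.41% of all genes) and 1 and 0 in M491-C04 (8.12% and 6.93%).

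A list of 9 genes was drawn up for enzymes that use NADPH, but LYS1 on it encodes an enzyme that works with NAD. Of the 9, the reductases GRE2 and GRE3 were higher in the mean of the 24 clones by edgeR. They were at 0.32 (adjusted p = 0.0382) and 0.30 (adjusted p = 0.0345), where 3.28% of all genes were called higher. GRE2 stood at 49.99 ± 4.12 CPM in the control and 191 ± 24.9 CPM in M495-F02, a log2 fold change of 1.94. It was also higher in M495-D09, at 0.68. GRE3, the aldose reductase, was at 1.03 in M495-F02, 0.42 in M495-D09 and 0.52 in M491-C04, all called. TRR1, the thioredoxin reductase, was lower in M495-F02 at -0.26 and in M495-D09 at -0.16. OYE2, an NADPH dehydrogenase, was lower in M495-F02 at -0.30 and in M491-C04 at -0.27. In M495-F02 LYS1, of lysine synthesis, was higher at 0.40 and GDH1, a glutamate dehydrogenase, lower at -0.65. That makes 3 higher, LYS1 among them, and 3 lower in M495-F02, where 25.6% and 24.7% of all genes were. The counts were 2 and 1 in M495-D09 (8.04% and 5.41% of all genes) and 1 and 1 in M491-C04 (8.12% and 6.93%). GDH1 at -0.30 and ERG1 at -0.20 did not pass in the mean of the 24 clones. Of 5 regulators, YAP1, a factor of the oxidative stress response, was higher in the mean of the 24 clones at 0.13 and in M491-C04 at 0.21, while MSN4 at 0.13, STB5 at -0.09 and GIS1 at 0.02 did not pass in the mean. STB5, known as an activator of pathway genes, and GIS1 were lower in M495-F02, at -0.32 and -0.52.

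Of 20 general stress genes 19 had a tested row. In the mean of the 24 clones 4 of these were higher and none lower by edgeR, where 3.28% and 2.26% of all genes were. The 4 were HSP26 at 0.50, HSP12 at 0.41, GAD1 at 0.31 and TFS1 at 0.25. In M495-D09 11 were higher and 0 lower, where 8.04% and 5.41% of all genes were, with HSP26 at 1.11, GAD1 at 0.83, TFS1 at 0.69, TSL1 at 0.57, HSP12 at 0.47, and PGM2, TPS2, GPH1, TPS1, PNC1 and NTH1 between 0.38 and 0.20. In M491-C04 7 were higher and 0 lower, where 8.12% and 6.93% of all genes were, with HSP26 at 1.10, HSP12 at 0.88, TFS1 at 0.59, GAD1 at 0.53, GPH1 at 0.46, TSL1 at 0.40 and TPS1 at 0.32. In M495-F02 7 were higher and 6 lower, where 25.6% and 24.7% of all genes were. The higher ones were HSP26 at 2.13, HSP12 at 1.83, GAD1 at 1.54, TFS1 at 1.25, CTT1 at 1.06, HSP104 at 0.76 and NTH1 at 0.58. The lower ones, PGM2 at -1.21, HXK1 at -1.0027, GSY2 at -0.94, GPH1 at -0.93, GLK1 at -0.48 and GDB1 at -0.41, act in hexose phosphorylation and glycogen metabolism. The list's median log2 fold change was 0.31 in M495-D09, 0.24 in M491-C04 and -0.00 in M495-F02. HSP26, a small heat shock protein, had 1543 ± 77.8 CPM in the control, 6843 ± 2021 in M495-F02, 4870 ± 1084 in M491-F10, 3370 ± 833 in M495-D09 and 3349 ± 763 in M491-C04. The 4 alpha cell markers were all lower in M495-D09 and in M491-C04, and 2 of the 4 were lower in M495-F02. All 4 were also lower in M491-E04, M491-E09 and M492-C04, where 3.07%, 1.29% and 4.09% of all genes were called lower. Of these clones, M492-C04 had 0 of 10 members called. The part of the stress genes and markers in the members' differences was not tested.

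Over the 26 group means Pearson's r of log2 CPM was 0.91 between SOL4 and GND2, 0.88 between TKL2 and NQM1, 0.87 between TKL2 and SOL4, 0.85 between GND2 and NQM1, and 0.80 between GND2 and TKL2. Between paralogues of the same step it was -0.16 for TKL1 and TKL2, -0.06 for GND1 and GND2, -0.25 for SOL3 and SOL4, and 0.06 for TAL1 and NQM1. Without M491-F10, whose TKL2 level chose the list, r was 0.90 between SOL4 and GND2, 0.88 between TKL2 and NQM1, 0.93 between TKL2 and SOL4, 0.85 between GND2 and NQM1, and 0.895 between GND2 and TKL2. The paralogue pairs then had -0.06 for TKL1 and TKL2, 0.03 for GND1 and GND2, -0.17 for SOL3 and SOL4, and 0.10 for TAL1 and NQM1. The main isozymes SOL3 and GND1 had 0.81 over all groups, and the single genes ZWF1 and RKI1 had -0.71. The points share the library sets and their scaling, and these values are a description.

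Among 4873 genes with a mean of at least 10 CPM, those most like TKL2 were NQM1 (r = 0.877), SOL4 (0.866), DAK1, a dihydroxyacetone kinase (0.858), YJR096W (0.853) and RTN2, a reticulon (0.843). The median r of all genes with TKL2 was -0.00, and 0.287% were over 0.8. With M491-F10 left out, the order became SOL4 (0.929), DCS2 (0.898), GND2 (0.895), TFS1, an inhibitor of carboxypeptidase Y (0.888), and YJR096W (0.878). RTN2 led for GND2 (0.965), TFS1 for SOL4 (0.944) and YJR096W for NQM1 (0.904). The next for GND2 were TFS1 (0.924), YJR096W (0.922), DCS2 (0.921) and YGR201C (0.915). For SOL4 they were RTN2 (0.935), YJR096W (0.926), DCS2 (0.919) and HSP26 (0.917), and for NQM1 OM45 (0.895), TKL2 (0.877), RTN2 (0.857) and GND2 (0.854). ZWF1 had other neighbours, namely CIR2 (0.881), RCF3 (0.881), PDB1, a subunit of pyruvate dehydrogenase (0.879), INM2 (0.870) and LSC1, a subunit of succinyl-CoA ligase (0.863).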

How the data were processed

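The authors deposited 1 table of whole-number counts per gene for each of 78 libraries, with no normalization. Per the labels and the submitters' processing notes, poly(A) RNA reads were trimmed and deduplicated by molecular identifier by fastp 0.23.1. STAR 2.5.2b served for alignment, and featureCounts (Subread 1.5.2) for counting uniquely assigned reads. The files' features lie on contigs of another assembly than the R64 build these notes name, so no coordinates or sequences were taken. A row pooling constructs (median 0.886% of counts) and a row named UNDEF (2.36%) were kept out.

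Counts were fitted with edgeR 4.0.16 in R 4.3.3 (TMM, filterByExpr by group, quasi-likelihood test) over all 78 libraries with terms for group and library set, leaving 51 residual degrees of freedom. Adjusted p-values are Benjamini-Hochberg values over the 5212 genes of each comparison, with a threshold of 0.05. A standard error is the size of the fitted log2 difference divided by the square root of its F statistic. The method was run on simulated data with a fixed dispersion and a set shift per gene shared by all groups. That simulation cannot speak to set shifts that differ between groups, as given above for SOL3 and NQM1. Replicate numbers mark the library set alone: the replicate 1 and 2 libraries of different groups did not deviate together by number (median r = 0.0129).

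Members and lists were chosen with earlier results of these data known. Named clones were up to 3 a side that passed, differed by 0.5 or more in log2, and had no overlap with the control. The share of all genes without overlap was not counted for any clone. Other clones given are the extremes of a member, chosen after their values were seen. Genes most like 5 members are the 5 with the highest Pearson r. Named genes of other lists are up to 4 by size in the mean of 24 clones and those called in the clones named for TKL2.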

Additional observations from a re-analysis of the deposited data

How the results depend on the processing

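The counts of members higher and lower than the control (46 and 18 pairs) and of members called in the mean of the 24 clones (3) stayed within 1.5 times of these values with RLE size factors, no filter, resubmitted plate rows as batches and DESeq2 1.42.0. The replicate number as a block gave 45, 17 and 3, so it moved no count by over 1.5 times. Without the library set term edgeR called 10 pairs higher, 1 lower and 0 members in the mean of the 24 clones, where 3 of 10 members had an unadjusted p below 0.05 and DESeq2 with the term called 3. The first set alone gave 75, 41 and 5, and the share of all genes called in these alternatives was not counted. Within a group, a chi-square per gene between libraries ran from 2.08 to 18.2 for replicates 1 and 2. For replicates 1 and 3 it ran from 54.4 to 159. Leaving out 1 library gave 23 to 46 pairs higher, 6 to 20 lower, and 1 to 6 members in the mean. The lowest were 23 and 1 without control replicate 1 and 6 and 1 without control replicate 3, and the highest, 6, was without M495-F02 replicate 3. Against the other clones of the plate row, an alternative chosen after seeing the data, 5 called differences changed sign: NQM1 in M490-F09 (-0.0735), ZWF1 in M491-C03 (-0.0478), and SOL3 in M491-C03 (0.0736), M491-C06 (0.12) and M491-C07 (0.0417). The cause was not tested. TKL2 and NQM1 in M495-D09, M495-F02 and M491-C04, and GND2 and SOL4 in M495-D09 and M495-F02, kept their direction under all 16 alternatives and stayed called wherever a test could be made, with TKL2 between 0.48 and 0.86 in M495-F02. All 64 called pairs had the same sign in both library sets, and 61 of them passed over replicates 1 and 2 by themselves. The pairs were called in a fit over these same libraries and share the control, so these counts are no independent check. With 3 libraries a group, RKI1, at a lowest count of 138, had the largest standard errors.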
